A study of Mus musculus with 6 samples.

Results

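The genes described here are 10 transcripts that mark T cells and natural killer (NK) cells, read in RNA from purified bone endothelial cells (BECs). They are Cd3d, Cd3e and Cd3g, the invariant chains of the T cell receptor complex; Trbc2, a constant region of the receptor's beta chain; the coreceptor genes Cd4, Cd8a and Cd8b1; and Nkg7, Klrb1c and Gzma, genes of cytotoxic lymphocytes. They were taken by name from the 37991 genes of the deposited count table, and all 10 passed the filter on low counts that left 19480 genes for testing. The study asked how sex hormones act on the blood vessels of bone, and this table sets young adult females beside males. There were 6 libraries, 3 from female and 3 from male mice, all labelled c57/Bl6, 12 weeks old and untreated wild type, with tibia given as the tissue. The cells were selected by endomucin, a surface glycoprotein of bone capillaries and veins, and the methods of the study describe selection with antibody-coated magnetic beads from digested bone. For sequencing, those methods kept the samples of best RNA quality. The number of mice behind each library is not given in the sources used here, so the p-values measure the spread between these libraries.

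A T cell recognises antigen through a receptor made of a variable alpha and beta (or gamma and delta) chain, which has almost no cytoplasmic tail of its own. The CD3 gamma, delta and epsilon chains, with the zeta chain, carry the signalling motifs that the kinase Lck phosphorylates. CD4 binds MHC class II and CD8 binds MHC class I, which brings Lck to the receptor and divides T cells into helper and cytotoxic lineages. NK cells lack the rearranged receptor and read MHC class I and stress ligands through germline-encoded receptors, and they share granzymes and perforin with cytotoxic T cells. Bone marrow holds circulating naive and memory T cells and is a site where NK cells mature. Endothelial cells are not known for making any of the CD3 chains.

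The libraries held 47678806 to 58325745 counts, so a floor of 3 counts was equal to 0.0477 to 0.0639 CPM (counts scaled to library size, with normalization by trimmed mean of M values). The transcripts matched the sex on every label. Xist lay between 152 and 364 CPM in females and between 0.126 and 0.702 CPM in males, and Ddx3y of the Y chromosome between 1.26 and 1.92 CPM in females and between 48.2 and 65.9 CPM in males. All 12 endothelial markers were above 3 counts in every library, among them Emcn, the gene of the selected protein, with 3.09 to 10.5 CPM, and Stab2 with 54.7 to 124 CPM. The endothelial list took 0.0188% to 0.0481% of all counts. The neutrophil list took 1.97% to 4.26%, the erythroid list 0.969% to 2.10% and the macrophage list 0.323% to 0.553%. The B cell list took 0.313% to 0.397% and the stromal list 0.121% to 0.297%. The dendritic cell list (0.00896% to 0.0124%) and the basophil and mast cell list (0.00935% to 0.0119%) lay below the endothelial list. The 10 T and NK genes together took 0.00929% to 0.0114%.

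Every T and NK gene was detected in every library, with 105 counts of Cd8a in female library 3 as the lowest count of all. Compared per kilobase of exon, so that long and short transcripts could be set side by side, the levels averaged over the 6 libraries fell into an order led by Nkg7, Trbc2 and Cd4. Nkg7 had 18.7 CPM per kb (range 13.4 to 25.2), Trbc2 13.3 (10.7 to 16.0) and Cd4 9.24 (6.19 to 11.3), and each of these ranges overlapped its neighbour's. A gap separated them from Gzma at 3.61 CPM per kb (2.49 to 4.42), Cd8b1 at 3.44 (2.60 to 4.37) and Cd3d at 3.21 (2.29 to 3.89), which overlapped each other throughout. Below a further gap lay Klrb1c at 1.47 CPM per kb (1.12 to 1.70) and Cd3g at 1.18 (0.829 to 1.64), then Cd8a at 0.840 (0.615 to 1.04) and Cd3e at 0.751 (0.643 to 1.03). Chains that assemble into a single receptor complex thus differed in level per kb, with Trbc2 far above Cd3e in all 6 libraries. Without division by length the gap was smaller, with 7.41 to 11.1 CPM for Trbc2 and 2.62 to 4.22 CPM for Cd3e. The length of a gene was that of all its annotated exons together, 692 bases for Trbc2 and 4081 for Cd3e, which can exceed a single transcript. The median gene of the 10 had 3.32 CPM per kb, close to the endothelial list at 2.73 and far under the B cell list at 64.8, the macrophage list at 81.7 and the neutrophil list at 387. Ptprc, which encodes the pan-leukocyte antigen CD45, had 29.7 CPM per kb. The exon lengths came from a newer annotation than the submitters may have used, so the order across genes carries that limit.

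**Figure D1:**
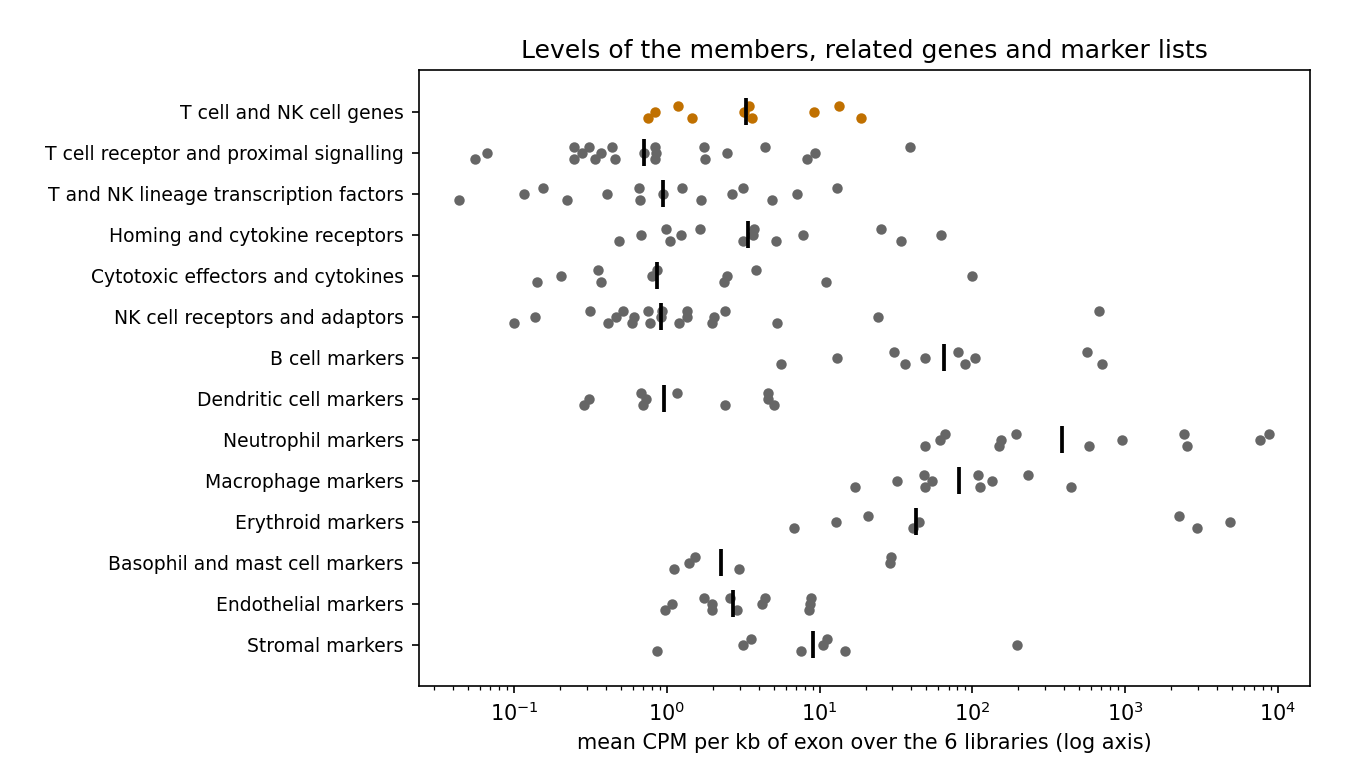
Mean CPM per kb of exon over the 6 libraries (horizontal log axis) for each gene of the T and NK list (orange) and of the related and marker lists (grey), with a vertical bar at each list's median. The 10 T and NK genes lie between 0.751 and 18.7, and the medians of the B cell, macrophage and neutrophil lists lie to the right of all of them.

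The 3 CD3 chains are encoded side by side on chromosome 9 (GRCm39, GENCODE M39). Cd3g lies at chr9:44880870-44891735 on the minus strand, Cd3d at chr9:44893083-44899173 on the plus strand and Cd3e at chr9:44910037-44920925 on the minus strand. Cd3d and Cd3g are read outward from neighbouring start sites, which lie 1355 bases apart in the RefSeq record of GRCm38.p6. The 250 bases upstream of each start are shown because these genes share a locus and are often treated as a single unit. In the RefSeq sequences below, 5′ to 3′ on the strand of the gene, capitals mark matches on either strand to CTTTGA (the TCF and LEF core), CAGNTG (an E-box), AGGAAG (an ETS motif), TGTGGT (the RUNX core) or TATAAA (the site of the TATA-binding protein). They cover chr9:44981536-44981785 (plus strand) for Cd3d, chr9:44980432-44980681 (minus strand) for Cd3g and chr9:45009612-45009861 (minus strand) for Cd3e.
Cd3d: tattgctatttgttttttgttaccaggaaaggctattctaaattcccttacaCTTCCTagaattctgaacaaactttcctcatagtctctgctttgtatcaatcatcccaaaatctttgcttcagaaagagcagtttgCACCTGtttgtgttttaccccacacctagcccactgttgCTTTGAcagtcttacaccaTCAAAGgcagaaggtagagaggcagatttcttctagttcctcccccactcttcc
Cd3g: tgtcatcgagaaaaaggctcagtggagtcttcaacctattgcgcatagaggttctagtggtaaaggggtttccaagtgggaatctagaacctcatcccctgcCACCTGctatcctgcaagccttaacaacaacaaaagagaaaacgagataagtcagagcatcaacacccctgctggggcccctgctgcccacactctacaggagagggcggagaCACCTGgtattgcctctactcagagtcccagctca
Cd3e: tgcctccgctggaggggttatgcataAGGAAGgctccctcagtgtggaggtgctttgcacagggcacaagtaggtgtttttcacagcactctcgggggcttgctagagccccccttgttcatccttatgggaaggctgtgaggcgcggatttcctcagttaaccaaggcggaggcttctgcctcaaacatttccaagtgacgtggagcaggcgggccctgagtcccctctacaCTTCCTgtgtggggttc
The Cd3d window held CTTTGA at 2 places, CAGNTG at 1 and AGGAAG at 1. The Cd3g window held CAGNTG at 2 places and none of the other 4 motifs, while the Cd3e window held AGGAAG at 2 places only. None of the 3 windows held TATAAA or TGTGGT. Such matches are common: of 32851 windows of the same length, 13.8% held CTTTGA, 44.8% CAGNTG, 29.5% AGGAAG, 14% TGTGGT and 12.4% TATAAA. Over the 7 T and NK genes found in the RefSeq table, 1 held CTTTGA, 5 CAGNTG, 4 AGGAAG, 3 TGTGGT and 0 TATAAA. No match overlapped another in these 3 windows, and a match describes the sequence only.

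Cd3d, the delta chain, was the most abundant CD3 transcript per kb in each library. It had 5.93, 9.44 and 7.86 CPM in the 3 females and 7.65, 8.85 and 10.1 CPM in the 3 males. The lowest library was a female and the highest a male, and the sexes overlapped, with means of 7.74 ± 1.76 and 8.86 ± 1.21 CPM (SD, n = 3 each). The log2 fold change of males over females was 0.19 (SE 0.217, 95% confidence interval -0.29 to 0.68, edgeR's quasi-likelihood test, adjusted p = 0.813). Cd3e, the epsilon chain that pairs with both others, had 2.62, 4.22 and 2.81 CPM in females and 2.68, 3.21 and 2.85 CPM in males. Female library 2 stood above all the others, which lay close together. Cd3g, the gamma chain, had 3.47, 5.37 and 4.03 CPM in females and 2.71, 3.80 and 3.73 CPM in males. Female library 2 was again the highest and male library 1 the lowest, with overlap between the sexes. By edgeR's test the log2 fold change was -0.14 for Cd3e (SE 0.278, interval -0.76 to 0.47, adjusted p = 0.9) and -0.33 for Cd3g (SE 0.268, interval -0.92 to 0.27, adjusted p = 0.739). Summed over the 3 chains, CD3 came to 12.0, 19.0 and 14.7 CPM in females and 13.0, 15.9 and 16.7 CPM in males, a log2 difference of -0.01 between the means.

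The proportions among the chains were less even than their sum. The ratio of Cd3d to Cd3g counts was 1.71 to 1.95 in females and 2.33 to 2.82 in males. All 3 males lay above all 3 females, a log2 difference of 0.53 between the mean ratios. This ratio was singled out after its values were seen and was not tested. The ratio of Cd3d to Cd3e, 2.24 to 3.54 over the 6 libraries, overlapped between the sexes. In Cd3e, 135 exon bases are shared with Gm48719, a noncoding gene on the opposite strand that had no row in the table, and the strand setting of the counting is not given in the sources used here.

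Trbc2 (chr6:41523664-41525286, GRCm39) encodes a constant region that completed beta chains carry. It had 9.75, 11.1 and 7.41 CPM in females and 7.90, 9.58 and 9.70 CPM in males. The highest and the lowest libraries were both female, and the means were 9.41 ± 1.85 and 9.06 ± 1.01 CPM (SD, n = 3 each). Males over females gave a log2 fold change of -0.06 (SE 0.199, interval -0.50 to 0.39, edgeR adjusted p = 0.954). Trbc1, its near-identical neighbour, had 5.37 to 8.10 CPM, and the ratio of Trbc2 to Trbc1 counts stayed between 1.22 and 1.47. Reads from the stretches that both share could have been dropped or split by the counting, so the levels of both are uncertain. Trac, the constant region of the alpha chain, had 1.83 to 3.06 CPM.

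Variable segments of the receptor genes were looked at after the data had been seen, since a rearranged receptor must use them. The 34 alpha or delta segments of the table summed to 60 to 129 counts per library (1.17 to 2.05 CPM), and the 19 beta segments to 93 to 169 counts (1.98 to 3.56 CPM). In each library 8 to 12 different beta segments had more than 3 counts. The 7 gamma segments, used by gamma-delta T cells, summed to 13 to 36 counts (0.223 to 0.683 CPM). The beta counts were thus spread over many segments in both sexes.

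The coreceptor genes lie on chromosome 6, Cd4 at chr6:124841655-124874758 and, close to each other, Cd8b1 at chr6:71299772-71315087 and Cd8a at chr6:71350411-71356157 (GRCm39). The sexes stood apart in 1 of the 10 T and NK genes, Cd4, against 14.5% of all genes tested (7.29% lower in males). It had 47.1, 50.7 and 50.0 CPM in females and 37.1, 27.8 and 36.7 CPM in males. Every female lay above every male, and male library 2 was the lowest. The means were 49.3 ± 1.90 CPM in females and 33.9 ± 5.25 CPM in males (SD, n = 3 each), 1.45-fold higher in females. The log2 fold change of males over females was -0.54 (SE 0.134, interval -0.84 to -0.24), which did not pass edgeR's quasi-likelihood test over all genes (adjusted p = 0.207, unadjusted p = 0.00224). DESeq2, the tool named in the study's methods, put it just under the threshold (log2 fold change -0.54, adjusted p = 0.0494), where 1.99% of the genes it tested were called. Over all the alternatives tried, the adjusted p of the edgeR and DESeq2 fits ranged from 0.0373, with the replicate number as a block, to 0.784, without male replicate 2 (log2 fold change -0.42). In bulk RNA, fewer cells of a type and less RNA per cell cannot be told apart.

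CD8 is a dimer of an alpha chain with either a beta chain or another alpha chain. Cd8a had 3.02, 3.78 and 2.24 CPM in females and 2.92, 3.59 and 2.78 CPM in males, with the males inside the range of the females. Cd8b1, the beta chain of conventional cytotoxic T cells, had 7.57, 7.83 and 5.75 CPM in females and 7.25, 9.66 and 7.55 CPM in males. Both CD8 genes were lowest in female library 3, and neither separated the sexes. The log2 fold change was 0.04 for Cd8a (SE 0.282, interval -0.59 to 0.67, edgeR adjusted p = 0.979) and 0.21 for Cd8b1 (SE 0.208, interval -0.25 to 0.67, edgeR adjusted p = 0.789). The ratio of Cd8b1 to Cd8a counts lay between 2.07 and 2.71 in the 6 libraries. Per kb of exon, Cd4 exceeded Cd8a 12.6-, 10.8- and 18.1-fold in females and 10.3-, 6.26- and 10.7-fold in males. Each female ratio lay above each male ratio, although the gap between female library 2 and male library 3 was small. The means were 13.8 ± 3.78 and 9.06 ± 2.44 (SD, n = 3 each), a log2 difference of -0.61. The ratio of Cd4 to Cd3e per kb, 10.9 to 16.3 in females and 7.87 to 12.6 in males, overlapped.

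**Figure D2:**
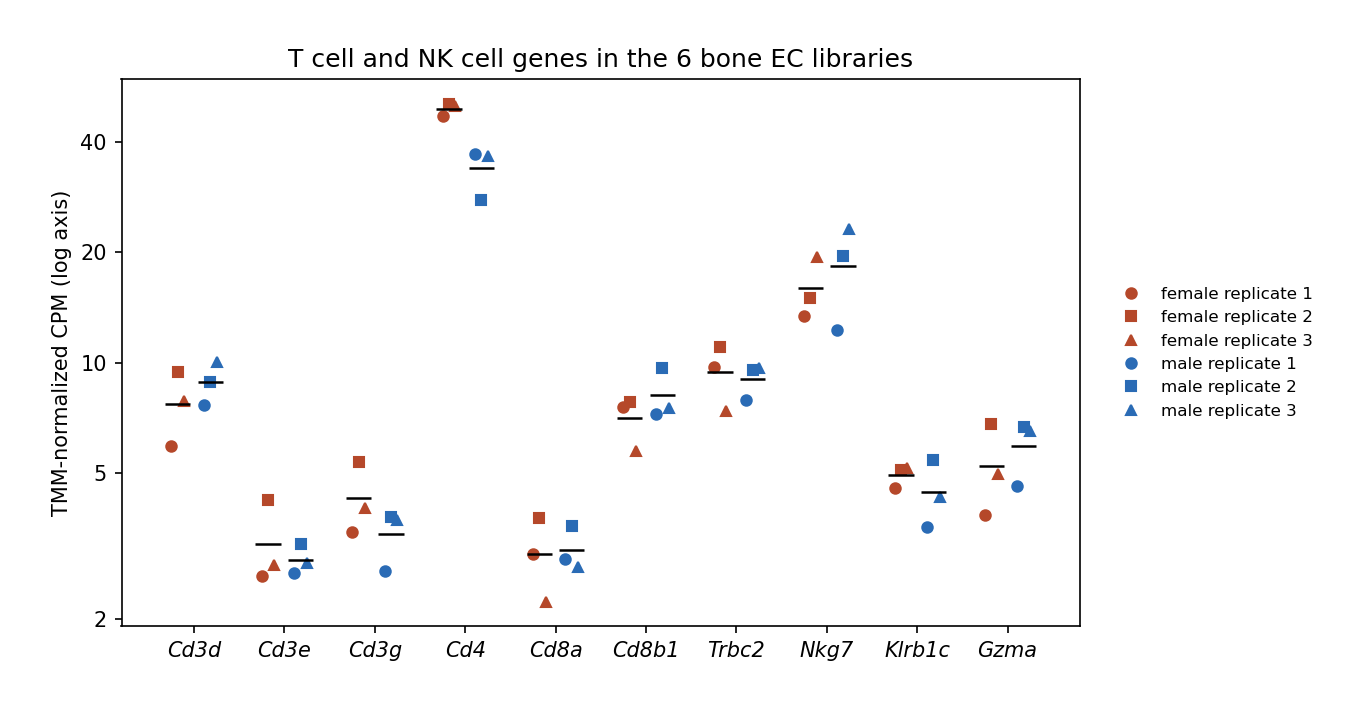
TMM-normalized CPM (log axis) of each of the 10 T and NK genes in the 3 female (red) and 3 male (blue) libraries, with a marker shape for each replicate number and a horizontal bar at the mean of each sex. The sexes overlap in 9 genes, and for Cd4 all females (47.1 to 50.7 CPM) lie above all males (27.8 to 37.1 CPM).

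Macrophages and dendritic cells can also transcribe Cd4, so its level was set beside lists of other cell types. The summed macrophage list (Adgre1, Csf1r, Mertk, Vcam1, C1qa, C1qb, C1qc, Cd68, Cd163 and Mrc1) had 5129, 5217 and 5002 CPM in females and 3700, 3231 and 4338 CPM in males. All 3 females again lay above all 3 males, and male library 2 was again the lowest. All 10 macrophage genes were lower in males, 8 of them without overlap, with a median log2 fold change of -0.42; edgeR called 0 of the 10 at an adjusted p under 0.05, with 10 at an unadjusted p under 0.05 and 2 called by DESeq2. Cd4 as a percentage of this sum was 0.918, 0.971 and 1.00 in females and 1.00, 0.861 and 0.846 in males. Highest and lowest library thus differed 1.18-fold in this ratio, and the sexes overlapped, against 1.82-fold for Cd4 alone. Of all the lists compared, the macrophage list gave the smallest spread for Cd4, followed by the list of cytotoxic effectors and cytokines at 1.38-fold. Most of that second sum was Lamp1, a lysosome protein of most cells (mean 563 of 598 CPM in females, 479 of 513 CPM in males). The ratio of Cd4 counts to those of Adgre1, which encodes the macrophage antigen F4/80, was 0.220 to 0.258 over the 6 libraries, the narrowest of the 10 macrophage genes at 1.17-fold. The widest was that to Mertk at 1.56-fold, and the ratio to Cd68 kept the sexes apart (0.224 to 0.253 in females, 0.197 to 0.223 in males). The ratio of Cd4 to the summed dendritic cell list, 25.6% to 54.9%, kept the sexes apart, as did its ratio to the B cell list, 0.863% to 1.57%. The endothelial list was also lower in males in all 12 genes (median log2 fold change -1.16, 0 called by edgeR). Of these, 10 stood at an unadjusted p under 0.05 and DESeq2 called 5, beside the same shares of all genes. The ratio of Cd4 to the endothelial sum, 10.6% to 15.4%, overlapped with a 1.46-fold spread. The part of macrophage or endothelial transcripts in the level of Cd4 was not tested.

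**Figure D3:**
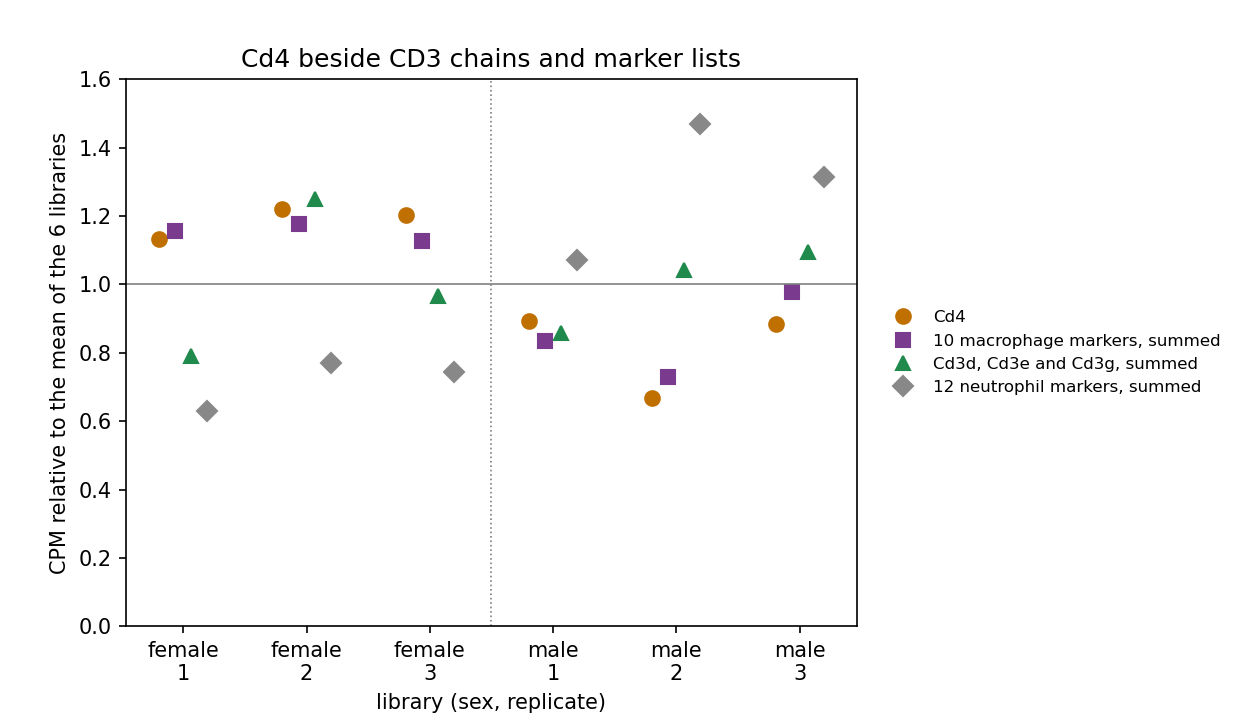
CPM relative to the mean of the 6 libraries (vertical axis) in each library, for Cd4, the 10 summed macrophage markers, the 3 summed CD3 chains and the 12 summed neutrophil markers. Cd4 (47.1 to 50.7 CPM in females, 27.8 to 37.1 in males) and the macrophage sum are higher in every female, the neutrophil sum is higher in every male, and the CD3 sum overlaps.

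Nkg7 (chr7:43086497-43087678, GRCm39) encodes a membrane protein of cytotoxic granules that is made by NK cells and cytotoxic T cells. It had 13.4, 15.0 and 19.5 CPM in females and 12.3, 19.5 and 23.2 CPM in males. The lowest and the highest libraries were both male, and the spread among males was wide, with means of 16.0 ± 3.15 and 18.3 ± 5.53 CPM (SD, n = 3 each). Males over females gave a log2 fold change of 0.20 (SE 0.233, interval -0.32 to 0.72, edgeR adjusted p = 0.819). Set over the other gene lists, its spread between libraries was smallest for the NK receptors and adaptors, at 1.77-fold against 1.88-fold alone. For the neutrophil list it was 2.28-fold. Elane of the neutrophil list, picked after its values were seen, was lowest and highest in the same libraries as Nkg7. Elane had 103, 120 and 208 CPM in females and 96.5, 168 and 220 CPM in males. The part of other cell types in the level of Nkg7 was not tested.

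Gzma (chr13:113230355-113237524) encodes granzyme A, a serine protease of the same granules. It had 3.85, 6.83 and 4.98 CPM in females and 4.61, 6.68 and 6.51 CPM in males, and female library 1 was the lowest and female library 2 the highest. Klrb1c (chr6:128755448-128766178) encodes the lectin-like receptor NK1.1, by which NK cells of C57BL/6 mice are recognised. It had 4.55, 5.11 and 5.18 CPM in females and 3.57, 5.42 and 4.32 CPM in males, with both extremes in males. The log2 fold change was 0.19 for Gzma (SE 0.266, interval -0.41 to 0.78, edgeR adjusted p = 0.862) and -0.16 for Klrb1c (SE 0.236, interval -0.68 to 0.37, edgeR adjusted p = 0.870). Klrb1c has close relatives in the same gene cluster and shares 413 exon bases with Gm44511, which had no row in the table, so its level is uncertain. The ratio of Nkg7 to Gzma counts, 2.19 to 3.91, overlapped between the sexes.

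Across the whole table, 8 of 19480 genes (0.0411%) passed edgeR's quasi-likelihood test for a sex difference, with 0.05 as the limit on the adjusted p. The T and NK genes among them numbered 0 of 10. At an unadjusted p under 0.05, where 9.79% of all genes stood (4.76% lower in males), there was 1, Cd4, which was also the gene called by DESeq2 and by the blocked fit. The estimates were lower in males for 5 of the 10 (50.2% of all genes) and higher for the other 5, with a median log2 fold change of -0.01 beside -0.00 over all genes. At this number of libraries the intervals of the 9 genes other than Cd4 all included 0, and reached as far as -0.92 for Cd3g and 0.78 for Gzma.

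**Figure D4:**
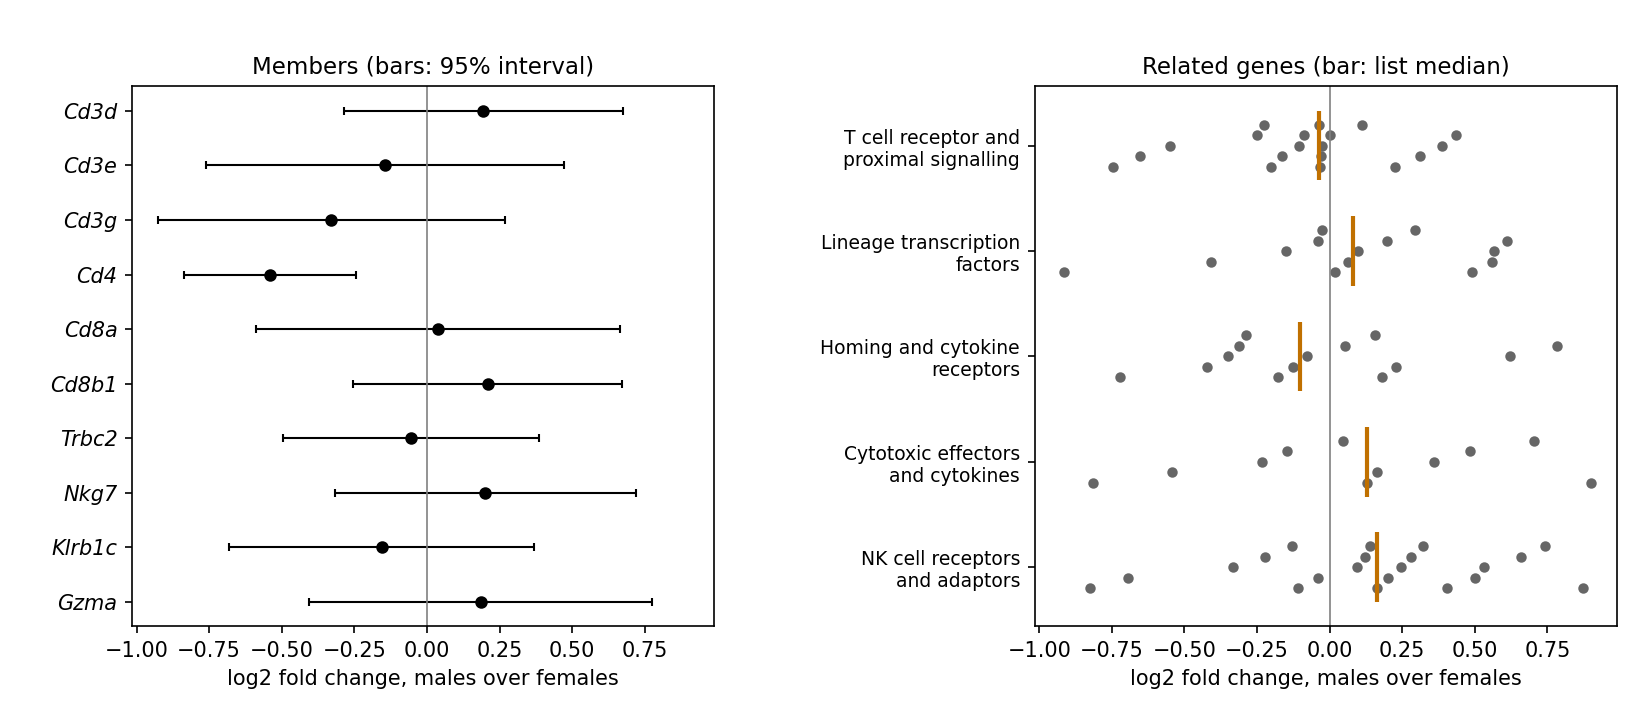
Log2 fold change of males over females from the edgeR fit, for each of the 10 T and NK genes with its 95% confidence interval (left) and for the 79 related genes by list with a bar at each list's median (right); a line marks 0. The interval of Cd4 (-0.84 to -0.24) lies below 0 and those of the other 9 genes include it.

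The summed level of the 10 genes was 101, 119 and 110 CPM in females and 88.7, 98.1 and 107 CPM in males, with overlap. The means were 110.1 ± 9.03 and 98.1 ± 9.36 CPM (SD, n = 3 each), a log2 difference of -0.17. Cd4 contributed 46.5%, 42.5% and 45.6% of that sum in females and 41.8%, 28.3% and 34.2% in males, and was the largest share in every library. Without Cd4 the sum was 54.2, 68.6 and 59.7 CPM in females and 51.6, 70.3 and 70.7 CPM in males. The sexes then overlapped widely, and the log2 difference was 0.08. Relative to Ptprc, the sum of all 10 was 0.175, 0.212 and 0.231 in females and 0.145, 0.167 and 0.203 in males, a log2 difference of -0.27 with overlap, and -0.02 without Cd4.

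Other genes of the same pathways gave a wider view of T and NK transcripts. Of 83 such genes listed, 82 were matched and 79 passed the filter. EdgeR called 0 of the 79 between the sexes, with 2 lower and 6 higher in males at an unadjusted p under 0.05 (9.79% of all genes), and DESeq2 called 1. The estimates were lower in males for 37 and higher for 42, with a median log2 fold change of 0.05, and 9 lower and 8 higher genes did not overlap (14.5% of all genes did not).

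Among the 19 tested genes of the receptor and its proximal signalling, 13 were lower and 6 higher in males (median log2 fold change -0.04, 0 called by edgeR). Per kb, the leading genes were Cd2 at 38.8 CPM, an adhesion receptor that mouse B cells also carry, Trbc1 at 9.30 and Rhoh, a GTPase-deficient signalling protein of blood cells, at 8.27. Lck, the kinase that acts first on the CD3 chains, had 4.38 CPM per kb, whereas Cd247, the zeta chain, had 0.340. Cd5, a surface brake on receptor signalling, had 1.30 to 2.10 CPM in females and 0.832 to 1.01 CPM in males. It did not overlap (edgeR adjusted p = 0.523). It was 1 of 2 such genes among the 19, both lower in males (7.29% of all genes).

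Of the 14 lineage transcription factors tested, 5 were lower and 9 higher in males (median 0.08, 0 called by edgeR). Ikzf3, a lymphoid zinc finger factor also made by B cells, led at 13.0 CPM per kb, followed by Zbtb7b (ThPOK), the factor of CD4 lineage choice, at 7.10, and Runx3, the factor of CD8 lineage choice, at 4.90. Tcf7, a factor of early and naive T cells, had 6.47, 8.29 and 7.28 CPM in females and 4.86, 6.39 and 5.33 CPM in males, without overlap (log2 fold change -0.41, edgeR adjusted p = 0.559). Nfil3, a factor needed for NK cell development, did not overlap in the other direction, with 9.83, 11.9 and 10.2 CPM in females and 12.7, 17.7 and 16.8 CPM in males (log2 fold change 0.56, edgeR adjusted p = 0.326). These were the 2 genes of the list without overlap (14.5% of all genes did not overlap), and Nfil3 had its smallest p. The part of other cell types in the level of Nfil3 was not tested.

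The 14 homing and cytokine receptors held the gene with the smallest p of all the related genes. Il18rap, the accessory chain of the interleukin-18 receptor, had 38.2, 40.4 and 37.2 CPM in females and 58.4, 81.6 and 59.3 CPM in males. All males lay well above all females, and male library 2 was the highest. The log2 fold change was 0.78 (SE 0.144), with an adjusted p of 0.0859 by edgeR and of 0.000622 by DESeq2. Neutrophil markers also separated the sexes, with summed levels of 18262 to 22278 CPM in females and 31055 to 42584 CPM in males, and male library 2 the highest. S100a8 and S100a9 made up most of that sum; 11 of the 12 genes were higher in males, 10 without overlap, and Mpo was lower (log2 fold change -0.61, with overlap). Of all genes tested, 7.25% were higher in males without overlap. EdgeR called 0 of the 12 neutrophil genes, with 9 at an unadjusted p under 0.05 (9.79% of all genes). DESeq2 called 7 (1.99% of the genes it tested). The part of neutrophil transcripts in the level of Il18rap was not tested. Of the 14 receptors, 8 were lower and 6 higher in males (median -0.10, 0 called by edgeR). Without overlap, 4 were lower and 1 higher (7.29% and 7.25% of all genes). Among the most abundant were Ccr7, a chemokine receptor of naive lymphocytes, at 34.1 CPM per kb, and S1pr1, the receptor for exit into blood, which endothelial cells also make, at 25.3.

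Among 11 cytotoxic effectors and cytokines, 4 were lower and 7 higher in males (median 0.13, 0 called by edgeR). Lamp1, a lysosome protein of most cells, led at 99.9 CPM per kb, followed by the chemokines Ccl5 at 11.1 and Xcl1 at 3.85. Prf1, the pore-forming perforin, had 0.865 CPM per kb and 2.05 to 2.72 CPM in the 6 libraries. Gzmb, granzyme B, had 0.636, 0.908 and 0.873 CPM in females and 1.04, 2.07 and 1.39 CPM in males. The males lay above the females at these low levels, but the gene did not pass edgeR's test (log2 fold change 0.90, SE 0.386, adjusted p = 0.481). Lamp1 did not overlap in the other direction, with 555 to 571 CPM in females and 417 to 539 CPM in males (log2 fold change -0.23, edgeR adjusted p = 0.617). Serpinb9, an inhibitor of granzyme B, had the smallest p of the list, with 11.1 to 16.5 CPM in females and 8.62 to 11.7 CPM in males, which overlapped (log2 fold change -0.54, edgeR adjusted p = 0.404).

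Of 21 NK receptors and adaptors, 7 were lower and 14 higher in males (median 0.16, 0 called by edgeR). Tyrobp (DAP12), a signalling adaptor that myeloid cells share with NK cells, led at 673 CPM per kb, followed by Hcst (DAP10), the adaptor of NKG2D, at 24.2, and Klrc1 (NKG2A), an inhibitory receptor, at 5.30. Ncr1, the receptor NKp46 that defines NK cells, had 1.37 CPM per kb. Tyrobp had 368, 432 and 385 CPM in females and 435, 548 and 584 CPM in males, whereas Klrk1 (NKG2D) had 15.3, 17.0 and 15.2 CPM in females and 9.81, 13.5 and 14.4 CPM in males. Neither passed edgeR's test (adjusted p = 0.401 for Tyrobp and 0.577 for Klrk1). Of the list, 5 genes did not overlap and were higher in males, and 1, Klrk1, was lower (7.25% and 7.29% of all genes). At an unadjusted p under 0.05 by edgeR there were 3 higher and 0 lower (9.79% of all genes in either direction). The smallest p belonged to Klra1, a Ly49 receptor with close relatives whose reads the counting could split. It had 3.05, 2.02 and 2.56 CPM in females and 4.29, 5.42 and 4.30 CPM in males (log2 fold change 0.87, edgeR adjusted p = 0.301). Hcst also stood higher in all males, with 13.0 to 16.5 CPM in females and 19.1 to 25.3 CPM in males (log2 fold change 0.53, edgeR adjusted p = 0.321). The part of other cell types in the levels of Tyrobp and Hcst was not tested.

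Averaged over the 10 genes after centring each on its mean log2 CPM, the libraries stood at -0.13, 0.25 and -0.06 in females and at -0.23, 0.11 and 0.07 in males. Female library 2 was the highest and male library 1 the lowest, so the order did not follow sex. Of 10473 protein-coding genes with a mean of at least 5 CPM, the 5 most like this profile were Lcp2 (Pearson r = 0.990), Ccl8 (0.976), Cxcl16 (0.969), Mrpl45 (0.966) and Commd7 (0.965), each over 6 libraries. With so few libraries 30 genes exceeded an r of 0.9, and all points share the depth and scaling of their library. Lcp2, which encodes the adaptor SLP-76 that T cells, NK cells and myeloid cells use, had 104, 121 and 108 CPM in females and 103, 114 and 113 CPM in males.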

How the data were processed

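RNA of endomucin-selected BECs was sequenced in 6 libraries. The deposited values are raw read counts per Ensembl gene, made by the authors with featureCounts and not normalized. The GEO labels name TopHat2 2.0.11, mm9 (NCBIM37) and a stranded kit, whereas the methods of the study name STAR 2.7.10a, featureCounts 2.0.1 and GRCm39; which produced this table, its annotation release and its strand setting are not given in the sources used here. Identifiers were matched to GENCODE M39 (31073 of 37991) for symbols, positions and exon lengths. The 10 members and the related and marker lists were chosen with earlier results of these data known.

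The whole table was fitted in R 4.3.3 with edgeR 4.0.16 (TMM, filterByExpr, robust quasi-likelihood F test, two-sided, sex as the only term), with Benjamini-Hochberg adjustment over 19480 genes and a threshold of 0.05. DESeq2 1.42.0, other scalings and filters, the replicate number as a block and leaving out each library were the alternatives. The scripts were tested on simulated data with 200 changed genes. CPM used TMM-scaled library sizes, so the percentages of all counts, which used plain totals, are on another scale. Libraries held 47678806 to 58325745 counts, and no pair agreed within sampling noise. Intervals of fold changes come from the edgeR fit. Floors of 3 counts cover counting error only. Named genes were all members, related genes called with or without the block, the 3 highest per kb of each related list (a gene among them is not reported here) and the 5 genes most like the members' profile; other related genes were named after their values were seen. The rule also takes the 2 most abundant genes of each other marker list, which stand here within the sums, counts and medians of those lists. Promoter sequences are from RefSeq on GRCm38.p6, which held 7 of the 10 members.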

Additional observations from a re-analysis of the deposited data

How the results depend on the processing

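In 12 of the 14 alternatives no member was called at an adjusted p under 0.05. The count of members called was 1 (Cd4) with DESeq2 and 1 with the replicate block, and stayed at 0 to 0 when each library was left out. The count of related genes called was 1 (Il18rap) with no filter on low counts, 1 with DESeq2, 1 with the replicate block and 1 without male replicate 3, and 0 to 1 when each library was left out. The cause was not tested. The median log2 fold change of the members was -0.01 and ranged from -0.13 (without female replicate 3) to 0.13 (without female replicate 2). Log2 fold changes of 4 members near 0, none of them called, changed sign without a library: Cd3e ranged from -0.26 (without female replicate 1) to 0.098 (female 2), Cd8a from -0.14 (female 3) to 0.23 (female 2), with -0.077 without male 2, Trbc2 from -0.20 (female 3) to 0.076 (female 2), with 0.032 without male 1, and Nkg7 from -0.0045 (male 3) to 0.42 (male 1). With each library left out, the log2 difference of the summed members ranged from -0.24 to -0.10, that relative to Ptprc from -0.40 to -0.16, and that of Cd4 over Cd8a from -0.76 to -0.37.

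The replicate numbers are shared between the sexes but were not taken as pairs: deviations of libraries with the same number correlated at 0.194, 0.0415 and 0.299 over 19480 genes, and 5 of 6 libraries correlated best with their own number, a hint from the data and not the design. With the replicate block, 428 genes (2.2%) were called over the whole table in place of 8, and Cd4 stood at -0.55 on the log2 scale (edgeR adjusted p = 0.0373); no other call on a member changed. The block also called 9 of the 12 endothelial, 6 of the 12 neutrophil and 1 of the 10 macrophage markers, where edgeR without it called 0 of each list. DESeq2 called 354 (1.99%), no filter gave 98 (0.362%) and leaving out male replicate 3 gave 96 (0.482%).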
